A study of Mus musculus with 2 samples.

Results

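Genes of the p53 response and of apoptosis were followed in the retina of 1 wild-type mouse embryo and of 1 Sox11 knockout littermate. Earlier results of these data were known when the genes were chosen. They were 34 textbook members of the p53 pathway, the Bcl2 family, the apoptosome and the caspases, listed by name. Of these, 32 had at least 1 probe set that the platform annotation ties to that symbol alone, among 18193 such genes on the array; Trp53 and Bax had none and were not analysed here. A gene took the value of its probe set with the highest mean intensity over both arrays.

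Both embryos were of C57BL/6 background at embryonic day 18, and the knockout was labelled Sox11-/-. Sox11 belongs to the SoxC transcription factors and is active in young neurons, and the design asked which transcripts differ in the retina that lacks it. Each genotype was represented by a single retina, whose amplified RNA was read on its own Affymetrix mouse array, so there was no replicate: no error and no test can be given, the number of arrays limits the precision, and each value below is a difference between 2 retinas. The labels do not say how Sox11 was inactivated or which part of it was removed. Its 6 probe sets had log2 ratios of knockout to wild type from -3.64 to 1.08, and a probe set outside a deleted part checks nothing. The brightest read 3205.7 on the wild-type array and 252.4 on the knockout array. The probe set at 1.08, which alone was higher in the knockout, read 328.8 and 701.7. Of 14 neural retina markers 12 were measured, and all 12 were above the low-value filter on both arrays, with summed intensities of 13614 on the wild-type array and 13541 on the knockout array.

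The protein p53, encoded by Trp53, is a transcription factor that is held low by the ubiquitin ligase Mdm2 and its partner Mdm4. When DNA is damaged or growth signals are disturbed, it is released and switches on genes of cell cycle arrest, of metabolism and of death. Death by the mitochondrial route is decided among Bcl2 proteins: BH3-only proteins sense stress, survival proteins bind and restrain them, and Bax and Bak1 open the outer membrane. Cytochrome c then leaves the mitochondrion and joins Apaf1 in the apoptosome, which activates Casp9 and the caspases downstream of it. In the developing retina this machinery removes many newly formed neurons, ganglion cells among them.

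The DNA element that p53 binds is made of 2 adjoining 10-base units, and it is shown here for the members that carry letters like it close to a transcription start. RefSeq promoter windows of GRCm38.p6, from 250 bases before to 50 bases after a start, were held for 27 of the 32 measured genes in 39 windows. The p53 element was searched with up to 3 mismatches and a spacer of at most 1 base; it is its own reverse complement, so that 1 strand covers both. A match was found in 5 windows of 5 genes (12.8%), against 2.82% of all 32851 windows. The match is in capitals below, with 40 bases on each side, written 5′ to 3′ on the gene's strand. The Cdkn1a window is chr17:29090888-29090987 on the plus strand and that of Ccng1 is chr11:40755422-40755521 on the minus strand, each with 1 mismatch. The Bbc3 window is chr7:16309446-16309545 and that of Sesn1 chr10:41887226-41887325, both on the plus strand with 3 mismatches. The Trp73 window is chr4:154097180-154097279 on the minus strand, with 2 mismatches.
Cdkn1a: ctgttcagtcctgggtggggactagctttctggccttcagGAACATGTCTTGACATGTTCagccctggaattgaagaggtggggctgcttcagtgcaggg
Ccng1: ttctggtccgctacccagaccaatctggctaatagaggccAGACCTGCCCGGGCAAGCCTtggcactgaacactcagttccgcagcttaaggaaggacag
Bbc3: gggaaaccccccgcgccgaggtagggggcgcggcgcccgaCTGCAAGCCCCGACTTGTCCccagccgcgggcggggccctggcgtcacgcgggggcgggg
Sesn1: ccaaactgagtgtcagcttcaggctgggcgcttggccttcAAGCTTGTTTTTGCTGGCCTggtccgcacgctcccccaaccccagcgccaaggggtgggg
Trp73: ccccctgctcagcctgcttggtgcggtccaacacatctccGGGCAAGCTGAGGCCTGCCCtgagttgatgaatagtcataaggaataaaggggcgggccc
A match in these letters is a description and not evidence that p53 was bound in these retinas.

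Few members stood apart between the retinas. Intensities were compared as log2(intensity + 5), knockout minus wild type, which understates the change of dim genes. A gene passed the low-value filter if its brighter array read at least 18.6, the pooled median intensity. Of the 32 genes, 25 passed and 7 were below that value on both arrays; none of the 25 passed on 1 array only. The smallest difference counted was a log2 ratio of 0.32, which is 25% higher or 20% lower. On this scale 3 of the 25 were at least 25% higher in the knockout, namely Sesn2, Sesn3 and Casp8, and 1 was at least 20% lower, Casp6. Among all 11553 genes past the filter, 11.2% were higher and 8.6% lower by that much, so that the members' 12% and 4% lay near the background. No member was 1.5-fold apart in either direction, where 3.81% of all genes were higher and 2.17% lower. The median log2 ratio of the 25 members was 0.04, beside -0.01 for all genes, and 12 of the 25 lay within 0.1 of 0. RNA was taken from whole retinas, so fewer cells of a type and less RNA per cell cannot be told apart.

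**Figure D1:**
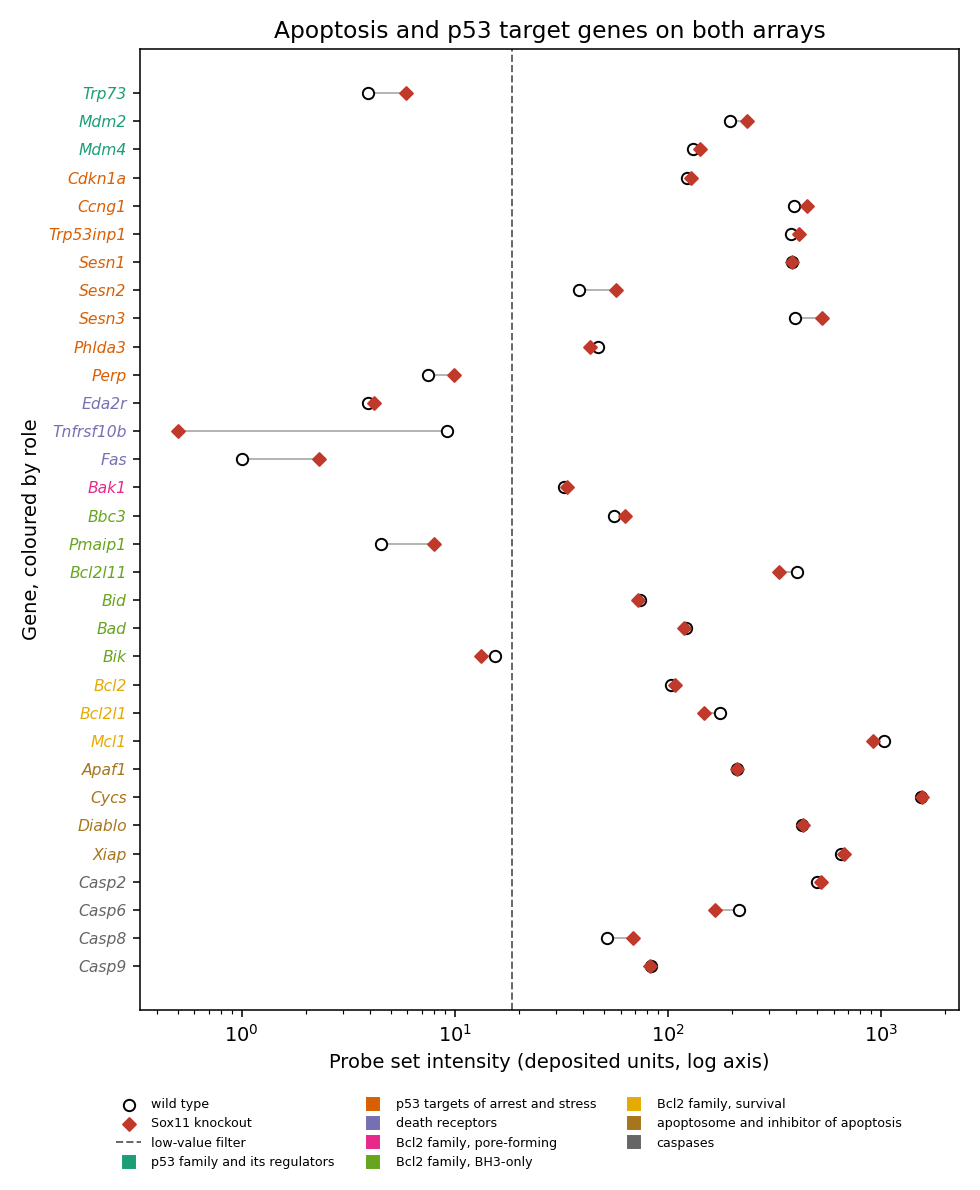
Intensity of the probe set that stands for each of the 32 measured genes, on a log axis in deposited units, in the wild-type retina (open circles) and the Sox11 knockout retina (red diamonds); names are coloured by role and the dashed line is the low-value filter of 18.6. The pairs of most genes overlap or nearly do, Sesn2, Sesn3, Casp6 and Casp8 are spread widest among those right of the line, and 7 genes lie left of it.

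The ratios also depended on how bright a gene was. In the dimmest of 4 equal bands of level, 24.5% of genes were at least 25% higher in the knockout and 15.6% at least 20% lower; in the brightest band these shares were 2.98% and 4.43%. The median log2 ratio went from 0.06 in the dimmest band to -0.06 in the brightest. Of the 25 members, 10 were in the brightest band, and 8 of these had a ratio above 0, as had 34.5% of all genes in that band. Most of the 8 lay close to 0, with Sesn1, Cycs, Diablo, Xiap and Casp2 at 0.003 to 0.07. The others were Ccng1, Trp53inp1 and Sesn3. The difference of Sesn3, in the brightest band, was thus of a size that few genes of its level had, while Sesn2 and Casp8 were in the dimmest band.

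Neither p53 regulator past the filter was 25% higher or 20% lower. Mdm2, which marks p53 for degradation and is itself a p53 target, read 197.0 on the wild-type array and 234.9 on the knockout array, a log2 ratio of 0.25. Its other probe set past the filter gave 0.23. Mdm4, which blocks the activating domain of p53, read 130.8 and 141.2, a log2 ratio of 0.11. Its probe sets did not share a direction, since the others past the filter gave -0.14 and -0.34. The one at -0.34, which read 20.4 and 15.1, passed on the wild-type array only and could only be lower. Without probe sets that have s, x or a in the suffix, Mdm4 alone remained, at -0.14. Trp73, which encodes a relative of p53 with roles in neuronal survival, read 3.9 and 5.9, below the filter on both arrays.

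The p53 targets of arrest and stress held the largest ratios of the set. Of 8 listed genes 7 passed the filter, 6 with a ratio above 0 and 1 below, and their median log2 ratio was 0.13. The sestrins are stress-induced proteins that restrain the growth kinase complex mTORC1, and the 3 sestrin genes differed among themselves. Sesn2, which p53 and also amino acid shortage induce, read 38.2 on the wild-type array and 57.3 on the knockout array, a log2 ratio of 0.53. Its second probe set, at 24.2 and 37.3, also gave 0.53. Sesn3, which is best known as a target of FoxO factors, read 394.5 and 528.4, a log2 ratio of 0.42, and its second probe set, at 265.8 and 481.8, gave 0.85. Sesn1, the member with a p53 element match in its window, read 383.9 and 384.6, a log2 ratio of 0.00, and its other probe sets past the filter gave -0.01 and -0.20. Both probe sets of Sesn2 and of Sesn3 were higher in the knockout, whereas Sesn1 was level or slightly lower.

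The stretches of 250 bases before the starts of Sesn2 and Sesn3 are shown because these genes had the largest ratios and neither window held a p53 element match. CCAAT, the box bound by the factor NF-Y, is in capitals on either strand, so that it reads as ATTGG where it lies on the opposite one. Sesn2 is at chr4:132510457-132510706 on the minus strand with 2 boxes, and Sesn3 at chr9:14276051-14276300 on the plus strand with 4, both in GRCm38.p6 from RefSeq.
Sesn2: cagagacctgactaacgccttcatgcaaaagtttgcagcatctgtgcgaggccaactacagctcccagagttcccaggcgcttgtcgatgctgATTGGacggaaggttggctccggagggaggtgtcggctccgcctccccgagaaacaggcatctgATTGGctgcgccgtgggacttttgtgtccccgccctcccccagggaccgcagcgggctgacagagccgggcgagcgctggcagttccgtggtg
Sesn3: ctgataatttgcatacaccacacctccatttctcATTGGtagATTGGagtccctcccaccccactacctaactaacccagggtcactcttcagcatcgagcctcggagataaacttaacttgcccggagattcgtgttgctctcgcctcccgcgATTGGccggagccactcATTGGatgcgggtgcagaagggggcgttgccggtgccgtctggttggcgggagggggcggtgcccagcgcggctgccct
CCAAT was present on either strand in 38.5% of the measured members' windows and in 37.4% of all windows. The cores ACAAAG and ACAATG, which Sox proteins can bind through their HMG box, were present on either strand in 8 of the 39 windows (20.5%), against 28.6% of all windows. They lay in windows of Bak1, Bbc3, Bcl2l1, Bid, Casp6, Mdm2 and Xiap.

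The other targets of this group differed less. Ccng1, cyclin G1, which recruits a phosphatase to Mdm2, read 390.5 and 451.6, a log2 ratio of 0.21, and all 3 of its probe sets were higher, up to 0.42. Trp53inp1, a nuclear protein that promotes p53 activity and autophagy, read 377.3 and 412.6, a log2 ratio of 0.13. Its dimmer probe set, from 23.3 to 45.5, gave 0.84. Cdkn1a, the inhibitor of cyclin-dependent kinases known as p21 and a standard readout of p53 activity, read 123.5 and 129.0, a log2 ratio of 0.06. Its second probe set, at 25.4 and 19.5, had the opposite sign with -0.31. Phlda3, which restrains the kinase Akt, read 46.9 and 43.0, a log2 ratio of -0.11, and was the only p53 target past the filter in this group below 0. Perp, a membrane protein of cell junctions, read 7.5 and 9.9 and was below the filter. Of the members whose windows held a p53 element match, Ccng1 and Bbc3 were thus slightly higher, Cdkn1a and Sesn1 were nearly level, and Trp73 was not above the filter.

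The death receptors among the members were below the low-value filter in both retinas. Fas read 1.0 and 2.3, Eda2r, a receptor of the ectodysplasin family, 3.9 and 4.2, and Tnfrsf10b, the mouse receptor for TRAIL, 9.2 and 0.5. Values below the filter are too close to background for an order, and no ratio is given for these genes.

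**Figure D2:**
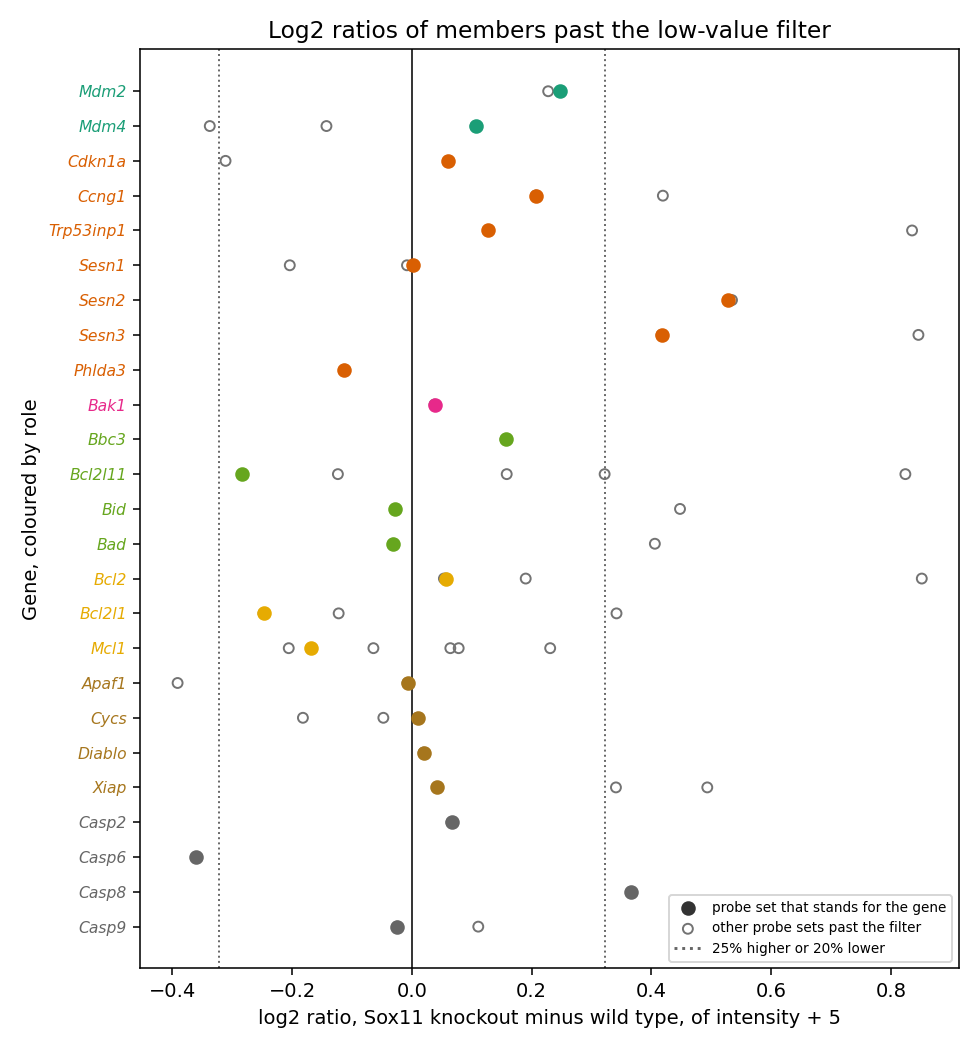
Log2 ratio of intensity + 5, knockout minus wild type, for the 25 genes past the filter: filled points are the probe set that stands for the gene, coloured by role, and open points its other probe sets past the filter; dotted lines mark 25% higher and 20% lower. Sesn2, Sesn3 and Casp8 lie right of the upper line and Casp6 left of the lower one, and the probe sets of Bcl2l11, Bcl2l1 and Mcl1 lie on both sides of 0.

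No gene of the Bcl2 family was 25% higher or 20% lower, and its members spread to both sides of 0. Of 11 listed genes 10 were measured and 8 passed the filter, 3 with a ratio above 0 and 5 below. Their median was -0.03. It was 0.13 with the median over all probe sets of each gene, those below the filter included. Bak1, which forms pores in the outer mitochondrial membrane, read 32.7 and 33.7, a log2 ratio of 0.04.

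Among BH3-only genes, Bbc3, which encodes the p53-induced killer PUMA, read 56.1 and 63.1, a log2 ratio of 0.16. Bcl2l11 encodes Bim, the BH3-only protein that drives death of neurons deprived of trophic factors. Its brightest probe set read 406.3 and 332.9, a log2 ratio of -0.28, but its 5 probe sets past the filter ran from -0.28 to 0.82, with 2 lower and 3 higher in the knockout. The direction of Bcl2l11 therefore depended on the probe set, and the dimmest, at 21.6 and 42.1, was the one furthest above 0. Bid, which is cut by Casp8 and links death receptors to mitochondria, read 73.7 and 72.2, a log2 ratio of -0.03, and Bad, which growth factor kinases inactivate, read 121.4 and 118.7, also -0.03. Their second probe sets past the filter gave 0.45 and 0.41. Pmaip1, which encodes Noxa, read 4.5 and 8.0, and Bik 15.5 and 13.3, both below the filter.

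The survival genes were level or slightly lower by their brightest probe sets. Mcl1, a short-lived survival protein needed by neural precursors, read 1036.7 and 921.8, a log2 ratio of -0.17. Of its 6 probe sets 3 were lower and 3 higher, from -0.21 to 0.23. Bcl2l1, which encodes Bcl-xL, read 176.8 and 148.1, a log2 ratio of -0.25, while its other probe sets past the filter gave -0.12 and 0.34. Bcl2 read 104.0 and 108.4, a log2 ratio of 0.06, and all 4 of its probe sets past the filter were above 0. The highest of these, at 0.85, went from 16.5 to 33.8, and the next, at 0.19, from 16.3 to 19.3. Both passed on the knockout array only, so that they could only be higher. A further probe set of Bcl2, at 10.3 and 9.7, was below the filter on both arrays. The median of the 3 survival genes was -0.17, and it rests on Mcl1 and Bcl2l1, whose probe sets did not share a direction.

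The apoptosome genes and their inhibitor were nearly level by their brightest probe sets. All 4 passed, with log2 ratios from -0.01 to 0.04. With the median over all probe sets of each gene, the group's median was -0.15. That median took in probe sets below the filter on both arrays, among them one of Diablo, at 15.6 and 10.8, and one of Cycs, at 13.4 and 8.3. Cycs, somatic cytochrome c, read 1547.7 and 1557.8, Diablo, which relieves caspase inhibition, 426.4 and 432.3, and Apaf1, the scaffold of the apoptosome, 211.6 and 210.5. Xiap, which binds and inhibits caspases, read 649.1 and 668.6. The other probe sets spread more: one of Cycs, at 644.5 and 567.5, gave -0.18, that of Apaf1, at 81.7 and 61.1, gave -0.39, and the second of Xiap, at 177.0 and 225.5, gave 0.34. Xiap lies on the X chromosome, and the arrays differed in sex-linked RNA: Xist, made from the inactive X, read 12.3 and 922.7, and the Y-linked Eif2s3y 214.0 and 4.7. The part of sex in the ratios was not tested and cannot be told apart from genotype with 1 retina each.

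The caspases differed in opposite directions. Casp8, the initiator caspase of death receptors, read 52.1 and 68.6, a log2 ratio of 0.37, from a single probe set in the dimmest band of level. It was no longer 25% higher after quantile normalization (0.28), after loess (0.28) or with the pseudocount at the pooled median (0.30). Casp6, an executioner caspase with a known role in axon degeneration, read 215.1 and 166.4, a log2 ratio of -0.36, in a band where 6.3% of genes were at least 20% lower. Its second probe set was below the filter on both arrays. Casp2 read 499.2 and 522.9, a log2 ratio of 0.07, and Casp9, the caspase of the apoptosome, 83.8 and 82.3, a log2 ratio of -0.02. The median of the 4 was 0.02.

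**Figure D3:**
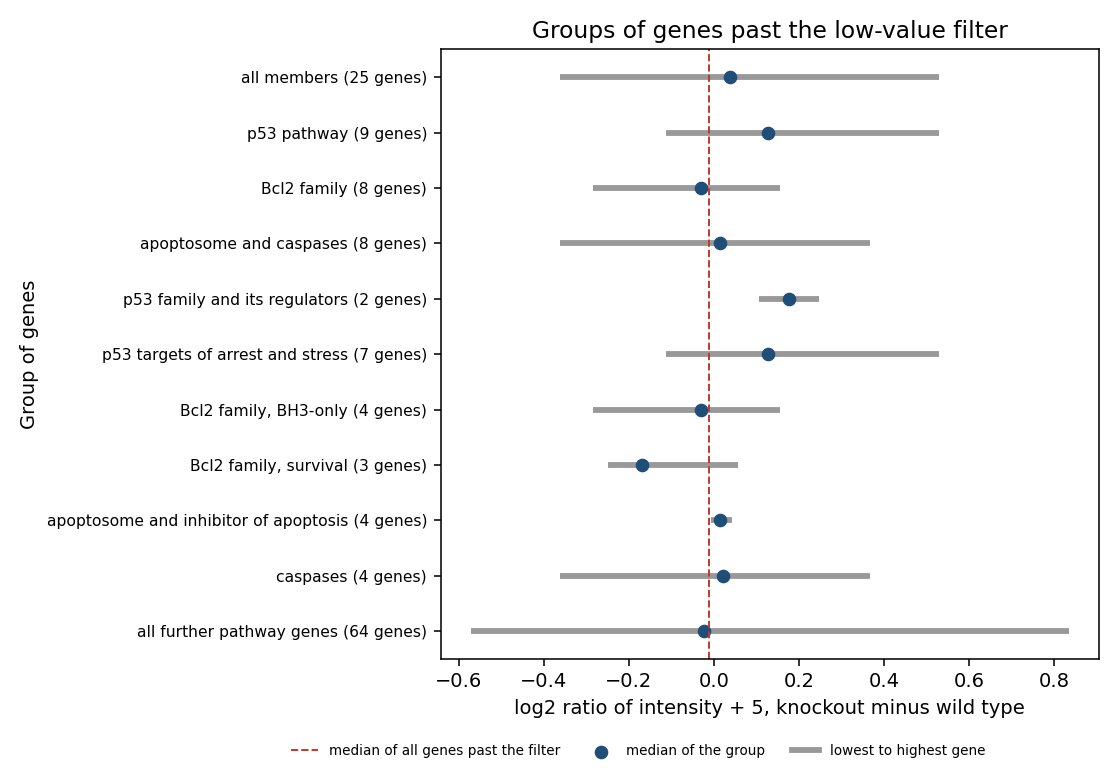
Median (points) and range from lowest to highest gene (grey bars) of the log2 ratio, knockout minus wild type, for groups with at least 2 genes past the filter; the dashed line is the median of all genes past the filter, -0.01. The medians of the p53 regulators (0.18) and p53 targets of arrest and stress (0.13) lie right of the line, that of the survival genes (-0.17) left of it, and the bars of most groups cross it.

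Set side by side, the 9 genes of the p53 pathway past the filter had a median log2 ratio of 0.13 with 8 above 0, the 8 of the Bcl2 family -0.03 with 3 above 0, and the 8 of the apoptosome and caspases 0.01 with 5 above 0. Of all genes past the filter, 47.7% had a ratio above 0. The 8 of the p53 pathway above 0 included Sesn1, at 0.003. With the median over all probe sets of each gene, those below the filter included, Mdm4 (-0.018), Cdkn1a (-0.125) and Sesn1 (-0.003) were below 0. The median of the p53 pathway was then 0.21. Differences between these groups were not tested. Probe sets of 1 gene also differed among themselves: for 5612 genes with several probe sets past the filter, the SD within genes, pooled, was 0.26 on the log2 scale. This is a spread on the same arrays and not an error of the difference between retinas. For 7 of the 25, namely Mdm2, Mdm4, Ccng1, Sesn1, Bcl2l11, Mcl1 and Cycs, the probe set in use may also match other transcripts, by its suffix. Of 18 members with several probe sets past the filter, 7 had all of them higher (38.9%) and 1, Apaf1, all of them lower (5.56%), where 29.8% and 20.2% of the 5612 genes did. The 7 were Mdm2, Ccng1, Trp53inp1, Sesn2, Sesn3, Bcl2 and Xiap. For Bcl2 and Xiap, some of these probe sets passed on the knockout array only and could only be higher.

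Further genes of the same pathways, taken from 5 lists chosen by textbook role, stood apart about as often as all genes did. Of 88 listed genes 80 were measured and 64 passed the filter; 8 (12.5%) were at least 25% higher in the knockout and 5 (7.81%) at least 20% lower, with a median of -0.02. Among further p53 targets, 3 of 19 were higher and 3 lower by these limits, with a median of -0.04. Gadd45a, a stress gene of growth arrest and DNA repair, read 277.7 and 499.3, a log2 ratio of 0.84 from 1 probe set, the largest of the 64. Zmat3, an RNA-binding p53 target, read 95.5 and 130, a log2 ratio of 0.43. The kinase gene Plk3 read 16.6 and 27.7, at least 1.49-fold higher against the filter value. It passed on the knockout array only and could only be higher. Tigar, which lowers glycolysis, read 44.2 and 29.0, a log2 ratio of -0.53.

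Of 16 further regulators of p53, 1 was at least 25% higher and none 20% lower, with a median of -0.05. The 1 was Hipk2, a kinase that phosphorylates p53, at 643.4 and 805.8. Its log2 ratio of 0.3225 was barely past the limit of 0.3219. All 7 probe sets of Hipk2 past the filter were above 0. Ppp1r13b, which encodes the p53 cofactor ASPP1, had a log2 ratio of -0.317, Chek1, the replication checkpoint kinase, -0.30 and Trp53bp2 -0.24. Another probe set of Trp53bp2 past the filter gave 0.12. Among 10 further Bcl2 family genes, Bok, a relative of Bax and Bak1, read 75.7 and 49.3, a log2 ratio of -0.57, and was the only one past either limit. Bcl2l13 and Bmf had log2 ratios of 0.15 and 0.14. Hrk, a neuronal BH3-only gene, read 18.5 and 22.6, at the edge of the filter, and passed on the knockout array only.

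Among 11 further genes of caspases and the apoptosome, 2 were higher by 25% or more and none lower by 20%. These were Dffa, the inhibitor of the caspase-activated DNase, at 122.1 and 182.0 with a log2 ratio of 0.56, and Birc6, a large inhibitor of apoptosis, at 335.5 and 476.5 with 0.50. The probe sets of both disagreed, running from -0.39 to 0.56 for Dffa and from -0.74 to 0.97 for Birc6. Casp14 had a log2 ratio of -0.30 and Endog, a mitochondrial nuclease, -0.21, though another probe set of Endog past the filter gave 0.34. Casp1, Casp4 and Casp12 were below the filter on both arrays. In the death receptor pathway, 2 of 8 genes were higher and 1 lower. Tnfrsf1a, the main receptor for tumour necrosis factor, read 89.5 and 125.5, a log2 ratio of 0.47, and its adaptor Tradd 33.1 and 44.9, a log2 ratio of 0.39. The lower gene, Tnfrsf25, read 18.8 and 11.4, with a wild-type value just above the filter. It passed on the wild-type array only and could only be lower. Ngfr, the neurotrophin receptor p75, had a log2 ratio of -0.25.

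The retinas also differed in markers of other cells. The summed intensity of 13 microglia and macrophage genes was 476.2 for the wild type and 985.9 for the knockout. All 11 genes past the filter were higher in the knockout. Of these 11, 3 passed on the knockout array only and could only be higher, and 8 passed on both arrays. Of 11 periocular mesenchyme genes 9 were measured, with sums of 91.1 and 670.2; 8 of the 9 were below the filter on the wild-type array and 1 on the knockout array. The 13 lens genes summed to 518.1 and 866.0, and the 10 pigment epithelium genes to 2131 and 2180. Without Otx2, which the neural retina also expresses, the other 9 summed to 289.5 and 428.6. The median log2 ratio of the 7 of the list past the filter was 0.60. At least 1.5-fold higher were 4 of them, and none was lower by that much. Tyr and Mlana, among these 4, passed on the knockout array only and could only be higher. The 7 endothelial genes summed to 844.7 and 652.9, with 5 below the filter on both arrays. Most of these sums came from Kdr alone, at 673.2 and 456.1. The only other endothelial gene past the filter, Cldn5, read 131.2 and 145.2. Within the neural retina, 8 measured rod genes summed to 1531 and 945.0, and to 978.6 and 377.3 without Gnb1. Their median log2 ratio was -0.99 over the 6 past the filter, with 5 at least 1.5-fold lower. Of these 5, Pde6b, Cngb1 and Reep6 passed on the wild-type array only and could only be lower. Nrl, at 632.8 and 289, and Sag, at 246.7 and 42.8, passed on both arrays. Summed intensities were 16943 and 13868 for 9 proliferation genes and 7953 and 8845 for 11 ganglion cell genes. No measured gene of these lists was at 0 on either array. The part of these cells in the ratios of Sesn2, Sesn3, Casp8, Casp6, Gadd45a and Tnfrsf1a was not tested.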

How the data were processed

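RNA of 1 retina per genotype was measured on 1 array each. Values were used as deposited by the authors: linear intensities, whose software is not given in the sources used here. They had been brought to a common level, since the mean without the top and bottom 2% came to 100 on either array. Control probe sets (64) were left out, which left 45037. Platform annotation gave 1 symbol for 34945, several for 932 and none for 9160; only the first were used. Ratios are of log2(intensity + 5), with no further normalization and no test, since each genotype had 1 array. Genes were counted if the brighter array reached 18.6; a fold against a dimmer value is a lower bound against 18.6. Counts used 25% higher or 20% lower, and 1.5-fold. All members were named, with Sox11 and the 4 genes of each further list with the largest ratios past the filter; sex-linked genes, and other genes beside a count, were named after their values were seen. The members and lists were chosen with earlier results of these data known. Promoter windows came from RefSeq (GRCm38.p6). Python 3.11.15, pandas 2.3.3, numpy 2.4.6 and, for loess (span 0.3), statsmodels 0.14.6 were used, and the procedure was tested on simulated data. Alternatives were median centring, quantile normalization, loess, other pseudocounts, other filters, the median over probe sets, and leaving out probe sets with s, x or a in the suffix, which can match several transcripts.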

Additional observations from a re-analysis of the deposited data

How the results depend on the processing

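Sesn2, Sesn3 and Casp6 were past the limits of 25% higher or 20% lower in the same direction under all 7 alternatives to scaling, pseudocount and probe set choice. Their log2 ratios were 0.42 to 0.58, 0.40 to 0.63 and -0.38 to -0.34. Leaving out probe sets with s, x or a in the suffix could not move them, since the probe sets in use had no such suffix. For Casp6, the median over probe sets took in a probe set below the filter on both arrays. Casp8 was past the limit of 25% higher under 4 of the 7. It gave 0.28 after quantile normalization, 0.28 after loess and 0.30 with the pseudocount at the pooled median. Casp8 has a single probe set without such a suffix, so the alternatives of probe set choice could not move it and count for nothing here. Without a pseudocount Sesn2 was 1.5-fold higher, and Sesn3 was past 1.5-fold with the median over probe sets. The median of all members ran from 0.02 to 0.07 and that of the p53 pathway from 0.09 to 0.21. With the median over all probe sets of a gene, dim ones included, the medians were 0.13 for the Bcl2 family, 0.17 for BH3-only genes, 0.057 for survival genes, -0.24 for Bak1 as the pore-forming gene and -0.15 for the apoptosome group; 5 members were higher by 25%, and 5 further pathway genes were higher and 3 lower. Bcl2l11 was then at 0.16, Bcl2l1 at 0.11, Bid at 0.24, Trp53inp1 at 0.48 and Xiap at 0.49. The dim probe sets included some below the filter on both arrays. Over probe sets past the filter alone, the medians were -0.12 for Bcl2l1, 0.21 for Bid, 0.34 for Xiap and 0.04 for Bak1. Bcl2l11 and Trp53inp1 had no probe set below the filter. Once probe sets with s, x or a in the suffix were left out, Mdm2 had none past the filter and the p53 regulators were Mdm4 alone at -0.14, survival genes were at 0.057 and 3 further pathway genes were lower. The number of further pathway genes lower by 20%, 5 as reported, was 8 after median centring, 9 after quantile normalization, 8 after loess and 8 without a pseudocount.

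With no low-value filter, 2 members were lower by 20%, as were 10 further pathway genes, and 2736 of all 18193 genes were higher and 2657 lower. With the filter at the pooled 75th percentile of 109.4, 1 member was higher, 1 further pathway gene was lower, the Bcl2 family median was -0.21 over 4 genes and that of caspases -0.15 over 2, and 438 of 7122 genes were higher and 436 lower; fewer genes were compared there. The cause of the other shifts was not tested. Among all genes, the median ratio stayed between -0.03 and 0.01. With 1 retina per genotype, no alternative measures the spread between animals, and genes below 18.6 on both arrays cannot be compared.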
